A study of Mus musculus with 10 samples.

Results

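Loss of Pcbp1 in resting B cells was examined in 4 of the 10 RNA-seq libraries of a mouse study, namely the 2 WT and the 2 KO libraries that the labels call naive B cells of day 0. All 55492 gene symbols of the deposited table were considered, and 21010 had enough counts to be tested. KO mice (Pcbp1 BKO) carried floxed Pcbp1 (fl/fl) and Mb1-Cre, a Cre recombinase expressed in the B lineage, and the control mice are labelled only WT. The cells were untreated primary cells of the spleen. The other 6 libraries (3 WT, 3 KO, day 4) came from induced germinal center B cells (iGCB), grown in the 40-LB system, and were used for a shared estimate of spread and for 1 comparison below. Strain, age, sex, the Cre status of WT mice and whether libraries stand for separate animals are not in the labels. P-values therefore measure the spread between these libraries, which may be technical, and effects of Cre itself and of Pcbp1 deletion cannot be told apart.

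PCBP1 is a protein with KH domains that binds C-rich stretches of RNA and takes part in splicing, mRNA stability and translation. It also acts as an iron chaperone that hands iron to ferritin and to other iron-using proteins. Its nearest relative, PCBP2, shares much of its sequence and RNA preference. Naive B cells recirculate through spleen and lymph nodes, display membrane immunoglobulin held by CD79A and CD79B, and carry MHC class I molecules, in which a heavy chain pairs with beta-2 microglobulin to show peptides to T cells.

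The naive libraries held 39625752 to 63576147 counts, with 2.84% to 3.43% of them on the mitochondrial genome. Levels below are in CPM, each library's counts scaled by its total and its TMM factor to a common size, and fold changes are log2 KO over WT from 1 edgeR quasi-likelihood fit, with the standard error (SE) and a Benjamini-Hochberg adjusted p. All 15 B cell markers were tested and their summed level was 26070 and 18405 CPM in WT and 18980 and 18914 CPM in KO. Libraries of the same number were more alike than libraries of the same genotype. Correlations of log2 CPM were 0.963 between WT 1 and KO 1 and 0.960 between WT 2 and KO 2, against 0.938 within WT and 0.934 within KO. The number also separated the sexes. Xist, expressed from the inactive X, had 91589 and 112199 counts in WT 1 and KO 1 but 59 and 107 in WT 2 and KO 2, while Y-linked Ddx3y had 0 counts in both number 1 libraries and 6670 and 6571 in both number 2 libraries. Changes are therefore also given within number 1 (female) and within number 2 (male), and a second fit carried a term for the number. Those within-number changes compare 1 library with 1 library and have no test.

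The targeted gene was low in both KO libraries. Pcbp1 stood at 152 CPM in WT 1 and 83.9 CPM in WT 2, against 4.33 CPM in KO 1 and 0.448 CPM in KO 2. The corresponding raw counts were 9032, 3327, 266 and 20, so the residual level was higher in KO 1 than in KO 2. The fitted difference was -5.59 (SE 0.82) and missed the threshold at an adjusted p of 0.0561 by edgeR. With the number term it was -6.02 with an adjusted p of 0.00147, and the 2 within-number changes were -5.12 and -7.40. 1600020E01Rik, an antisense transcript that overlaps Pcbp1 on the opposite strand of chromosome 6, fell together with it. Its levels were 12.3 and 20.5 CPM in WT and 0.684 and 0.0896 CPM in KO, a difference of -5.34 (SE 0.70, adjusted p 0.0313 by edgeR). The strand setting of the counting is not given, so reads where both genes overlap cannot be told apart.

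Among the other PCBP family members, Pcbp2 was measured at 366 and 309 CPM in WT and 292 and 289 CPM in KO. Its difference of -0.22 (SE 0.16) had an adjusted p of 1 by edgeR. Pcbp4, a low-level relative, was at 2.14 and 2.50 CPM in WT and 6.40 and 4.91 CPM in KO. Both KO libraries thus lay above both WT libraries, as in 11.5% of all genes tested. The Pcbp4 difference of 1.29 (SE 0.26) did not pass edgeR's test in the fit without a number term (adjusted p 0.185) or with it (adjusted p 0.0771). DESeq2 and edgeR without a filter on low counts called Pcbp4 higher, with a smallest adjusted p of 0.00203 in DESeq2. Pcbp3 differed by 0.41 and Hnrnpk, which carries the same kind of RNA-binding domain, by -0.16, both with unadjusted p above 0.05.

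Few genes passed the threshold at an adjusted p of 0.05. There were 3 higher genes (0.0143% of those tested) and 7 lower genes (0.0333%), together 10 (0.0476%). The higher genes were Jhy, Rundc3a and Gm15459. The lower genes were H2-Q4, H2-Q5, H2-Q6, H2-Q7, Cd79a, 1600020E01Rik and Zfp521. At an unadjusted p under 0.05 there were 594 higher (2.83%) and 572 lower genes (2.72%). With the number term, 35 genes were higher (0.167%) and 22 lower (0.105%), together 57 (0.271%) and including all 10 of the first fit. At an unadjusted p under 0.05 that fit had 864 higher (4.11%) and 875 lower genes (4.16%).

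**Figure D1:**
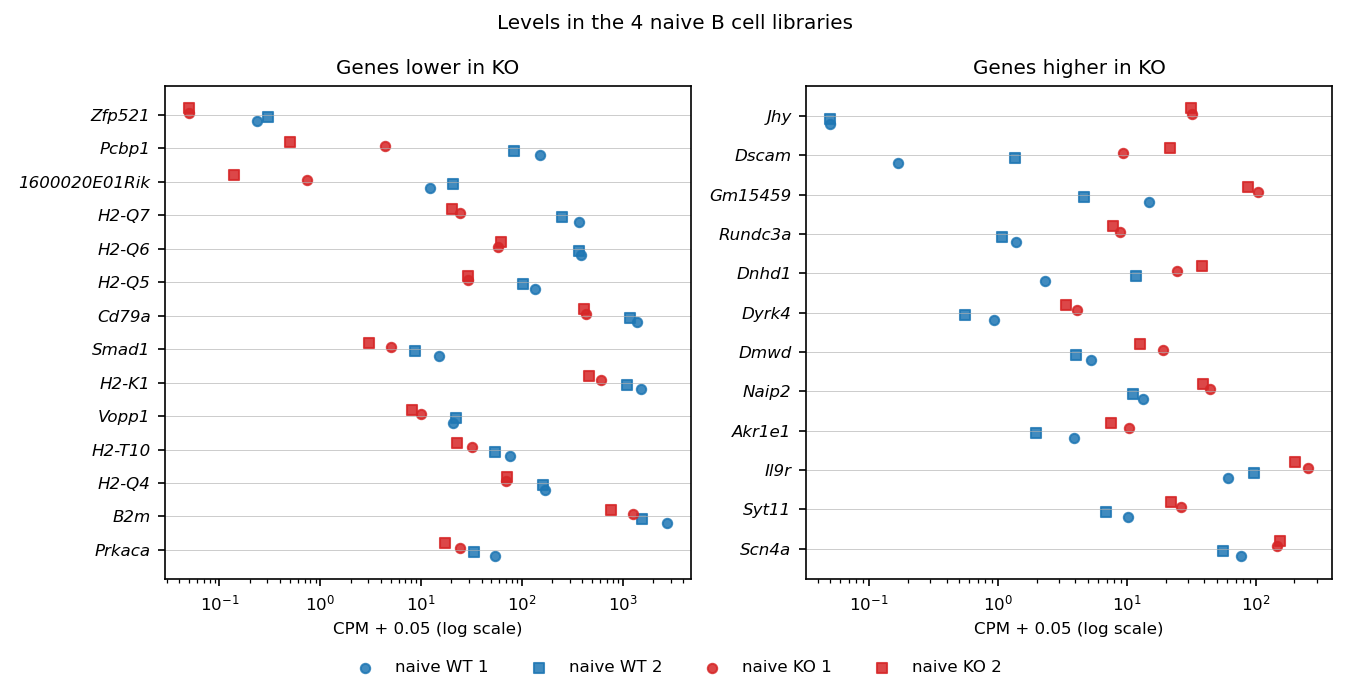
CPM of named genes in each naive library, on a log axis after adding 0.05 so that 0 can be drawn. Blue marks WT, red marks KO, circles are number 1 and squares number 2. The left panel holds lower genes and the right panel higher genes. In every row shown both KO libraries lie on the same side of both WT libraries. The rule for naming genes required this of all rows except Gm15459, 1600020E01Rik and Zfp521.

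MHC class I heavy chain genes made up 4 of the 7 lower genes. H2-Q7, which encodes a Qa-2 molecule, was at 370 and 251 CPM in WT and at 24.4 and 20.3 CPM in KO. It fell by 3.80 on the log2 scale (SE 0.31, adjusted p 0.00183 by edgeR), the smallest p of all genes tested. H2-Q6, its neighbor on chromosome 17, was at 389 and 371 CPM in WT and 58.3 and 61.6 CPM in KO. That is a difference of -2.66 (SE 0.23, adjusted p 0.00183 by edgeR). H2-Q5, annotated as a polymorphic pseudogene, went from 135 and 102 CPM to 29.4 and 29.0 CPM, and H2-Q4 from 170 and 162 CPM to 69.8 and 71.5 CPM. These were differences of -2.02 (SE 0.29, adjusted p 0.0497) and -1.23 (SE 0.16, adjusted p 0.0313) by edgeR. In each of these 4 genes the 2 KO libraries lay close together and far below both WT libraries. Changes within number 1 and number 2 were -3.92 and -3.63 (H2-Q7), -2.74 and -2.59 (H2-Q6), -2.19 and -1.81 (H2-Q5), and -1.29 and -1.17 (H2-Q4).

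The classical heavy chain genes, which present peptides to CD8 T cells, were lower in both numbers and passed edgeR's test with the number term but not in the fit without it. H2-K1 was at 1519 and 1099 CPM in WT and 604 and 469 CPM in KO. Its difference was -1.29 (SE 0.24), with an adjusted p of 0.147 without and 0.0205 with the number term by edgeR. H2-D1, named after its values were seen, was at 1221 and 932 CPM in WT and 507 and 454 CPM in KO, with adjusted p of 0.183 and 0.0470. H2-T10, a nonclassical member annotated as a polymorphic pseudogene, went from 76.5 and 54.2 CPM to 32.4 and 22.5 CPM, with adjusted p of 0.185 and 0.0265. Other members, also named after their values were seen, passed neither fit. H2-T22 differed by -1.10, H2-T24 by -0.87, H2-T23 by -0.69 and H2-M3 by -0.39, whereas the lipid-presenting Cd1d1 differed by 0.34 and the metabolite-presenting Mr1 by 0.17. Heavy chain genes are near copies of each other, and how reads that match several of them were assigned is not given, so the split between members is uncertain.

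Over the whole class I heavy chain list, 18 of 19 members were tested. Of these 4 passed the threshold and 7 passed with the number term, all lower. There were 10 members with an unadjusted p under 0.05 in the lower direction and 1 in the higher direction (H2-M5, under 1 CPM). Lower values were found for 15 members and higher values for 3. The median difference was -1.22, or -1.16 over the 13 members with a mean of at least 1 CPM, against -0.05 over all genes tested. Within number 1 and number 2 the list medians were -1.20 and -1.11. DESeq2, run as an alternative, called 8 members lower, adding H2-K1, H2-D1, H2-T10 and H2-T22 to the 4, and H2-M5 higher. The summed level of the list was 4383 and 3297 CPM in WT and 1634 and 1362 CPM in KO.

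B2m, the light chain shared by all these molecules, lies on chromosome 2. It was at 2762 and 1571 CPM in WT and 1274 and 764 CPM in KO. The difference of -1.09 (SE 0.30) had an adjusted p of 0.457 without and 0.0371 with the number term by edgeR, and the within-number changes were -1.12 and -1.04. In both genotypes the number 1 library was higher than the number 2 library. Genes that load peptides onto class I molecules moved little by comparison. Of the 15 members of that list only B2m had an unadjusted p under 0.05, the only gene there that DESeq2 called, and the list median was -0.20. Tap1, a peptide transporter subunit, differed by -0.44 and Erap1, which trims peptides, by -0.24. Nlrc5, the class I transactivator, was higher in both KO libraries, at 235 and 199 CPM against 181 and 166 CPM in WT, but its difference of 0.32 (SE 0.21) had an adjusted p of 1.

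Because heavy chain genes and B2m were lower together, the promoters of 3 of them are shown. H2-Q7 had the smallest p of the list, H2-K1 is a classical gene, and B2m lies on another chromosome. Each sequence is from RefSeq on GRCm38.p6 and runs 5′ to 3′ on the gene's strand from 250 bases before to 50 bases after the start, at chr17:35438905-35439204 (plus strand) for H2-Q7, chr17:34000298-34000597 (minus strand) for H2-K1 and chr2:122147437-122147736 (plus strand) for B2m. Capitals mark matches, on either strand, to GGGNNTTCC (kappa B type), GAANNGAAA (interferon-stimulated response element type), TGACG (X2 or CRE type) and CCAAT, letters chosen after these sequences were seen.
H2-Q7: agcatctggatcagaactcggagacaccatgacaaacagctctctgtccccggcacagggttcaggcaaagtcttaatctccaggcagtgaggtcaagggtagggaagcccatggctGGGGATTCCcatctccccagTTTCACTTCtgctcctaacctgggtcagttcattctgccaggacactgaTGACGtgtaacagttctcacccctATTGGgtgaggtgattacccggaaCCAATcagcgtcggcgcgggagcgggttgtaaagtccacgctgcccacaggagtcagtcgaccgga
H2-K1: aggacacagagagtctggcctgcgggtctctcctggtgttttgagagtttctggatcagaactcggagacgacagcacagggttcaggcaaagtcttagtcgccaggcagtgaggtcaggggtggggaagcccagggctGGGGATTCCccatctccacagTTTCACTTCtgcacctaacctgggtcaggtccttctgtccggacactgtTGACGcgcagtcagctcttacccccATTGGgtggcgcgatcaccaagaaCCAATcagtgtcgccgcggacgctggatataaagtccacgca
B2m: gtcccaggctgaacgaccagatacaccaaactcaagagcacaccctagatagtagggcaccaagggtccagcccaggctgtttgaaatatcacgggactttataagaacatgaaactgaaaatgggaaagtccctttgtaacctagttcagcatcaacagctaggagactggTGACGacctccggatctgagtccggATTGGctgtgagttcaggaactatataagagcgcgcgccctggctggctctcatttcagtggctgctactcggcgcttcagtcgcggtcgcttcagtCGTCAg
H2-Q7 and H2-K1 each held the 4 kinds of match, and the B2m window held matches to TGACG and CCAAT. The longer strings fix the number of bases between their ends, and forms with another spacing were not searched in any window. No capitals overlap another kind of match in these 3 windows. Over 27025 promoters of the same length, 5.72% held the kappa B type, 7.56% the response element type, 21% TGACG and 37.9% CCAAT. All 4 occurred together in 11 promoters (0.0407%), of which 5 belonged to H2-D1, H2-K1, H2-M2, H2-Q4 and H2-Q7. Of 20 heavy chain genes and B2m, 15 had a promoter in the RefSeq table. The other 10 of these 15 lacked at least 1 kind, among them H2-Q6, which held 3 kinds, and H2-Q2 and H2-Q10, which held 1 each. A match describes letters only and says nothing about binding.

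Genes of the interferon response were lower more often than higher, without any of them passing edgeR's test with or without the number term. Of 58 tested, 11 had an unadjusted p under 0.05 and all 11 were lower, while 50 had values below 0 (54.8% of all genes did). Irf7, a transcription factor that amplifies interferon responses, was at 88.6 and 37.1 CPM in WT and 26.7 and 17.1 CPM in KO. Its difference was -1.52 (SE 0.44, adjusted p 0.491 by edgeR). Rsad2, an antiviral enzyme, was at 21.6 and 11.4 CPM in WT and 6.73 and 2.62 CPM in KO, a difference of -1.82 (adjusted p 0.612). Epsti1 and Bst2, both induced by interferon, differed by -0.66 and -0.98. The list median was -0.41, with -0.55 within number 1 and -0.20 within number 2. WT 1 was the highest library in all 4 of these genes, and both KO libraries lay below WT 2. DESeq2 also called 0 of the 58. Without a filter on low counts edgeR called Irf7 lower (adjusted p 0.000724).

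Cd79a, the signalling subunit of the B cell receptor that is also known as Mb1, fell in KO cells. It was at 1387 and 1173 CPM in WT and at 432 and 414 CPM in KO. The difference of -1.60 (SE 0.18) had an adjusted p of 0.0126 by edgeR, and the changes within numbers were -1.68 and -1.50. The widely used Mb1-Cre allele places Cre in the Cd79a gene, and since the labels do not say whether WT mice carried it, the allele and the loss of Pcbp1 cannot be told apart here. Prkcb, a kinase downstream of the receptor that was named after its values were seen, was at 637 and 710 CPM in WT and 418 and 492 CPM in KO (difference -0.57, adjusted p 0.636 by edgeR). Of 28 receptor and proximal signalling genes only Cd79a passed in edgeR, and 22 had values below 0, with a median of -0.19. DESeq2 called Cd79a lower and also Rasgrp3 higher.

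Antigen receptor V segments differed between the numbers. Over 118 heavy chain V segments the median difference was -0.02, made up of -0.38 within number 1 and 0.39 within number 2. Over 115 kappa V segments it was 0.04, made up of -0.25 and 0.59. A single segment of each kind was called higher with the number term.

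Among the higher genes, Jhy was detected in both naive KO libraries and in neither naive WT library. This gene, named for juvenile hydrocephalus, had 0 counts in both naive WT libraries and 1959 and 1403 counts in KO 1 and KO 2, or 31.9 and 31.4 CPM. The edgeR adjusted p was 0.00761. With WT at 0 its fitted fold change depends on the prior count and is left out. Reads for Jhy were almost absent from iGCB cells of either genotype, with 2 counts in 1 WT library and 0 in the other 5.

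Rundc3a, which encodes a RUN domain protein, was low in WT at 1.33 and 1.03 CPM. It rose to 8.78 and 7.75 CPM in KO, a difference of 2.80 (SE 0.34, adjusted p 0.0225 by edgeR) with 2.68 and 2.85 within the numbers. Gm15459, a processed pseudogene on chromosome 5, was at 14.8 and 4.61 CPM in WT and 104 and 87.5 CPM in KO. Its difference was 3.30 (SE 0.47, adjusted p 0.0497 by edgeR). A lincRNA is annotated on the opposite strand across it, and reads of a pseudogene may also come from near copies. Zfp521, a zinc finger gene, rested on very few reads, with 11 and 10 counts in WT and 0 and 0 in KO (adjusted p 0.0386 by edgeR). In iGCB cells the same gene had 628 to 949 counts in each library, and it passed the filter on low counts only through those libraries.

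A further set of higher genes passed edgeR's test with the number term but not in the fit without it. Il9r, a cytokine receptor subunit, was at 60.8 and 97.2 CPM in WT and 255 and 201 CPM in KO. It rose by 1.56 in that fit (adjusted p 0.0186 by edgeR, against 0.0664 without the term). Naip2, an inflammasome sensor of bacterial secretion proteins, rose in step in both numbers, from 13.3 and 11.2 CPM to 43.8 and 39.0 CPM (adjusted p 0.0177 with and 0.0640 without the term). Scn4a, a sodium channel subunit, was at 77.3 and 55.6 CPM in WT and 147 and 154 CPM in KO, with an adjusted p of 0.0354 with the term by edgeR. Dscam, an adhesion molecule of neurons, was at 0.118 and 1.31 CPM in WT and 9.25 and 21.7 CPM in KO (adjusted p 0.0177 with the term).

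Further higher genes of that fit were Dyrk4, a kinase (fitted difference 2.43), Dmwd (1.77), Akr1e1, a reductase (1.68), Syt11, a vesicle protein (1.52), and Dnhd1, a dynein heavy chain domain gene (2.54). Dnhd1 overlaps another annotated gene on the same strand, so its reads may be shared. Genes named after their values were seen include Dusp4, a phosphatase of MAP kinases, at 43.7 and 102 CPM in WT and 158 and 179 CPM in KO, and Msi2, an RNA-binding protein, at 102 and 110 CPM in WT and 179 and 204 CPM in KO. Gimap4, a GTPase of lymphocytes, was at 465 and 249 CPM in WT and 748 and 499 CPM in KO. All 3 had an adjusted p of 0.0436 with the term by edgeR.

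Lower genes of the number-term fit outside antigen presentation were fewer. Smad1, which carries signals of BMP receptors, was at 15.1 and 8.70 CPM in WT and 4.98 and 3.00 CPM in KO. The fitted difference was -1.57 with an adjusted p of 0.0177 by edgeR. Prkaca, the catalytic subunit of protein kinase A, was at 54.1 and 33.5 CPM in WT and 24.2 and 17.3 CPM in KO (adjusted p 0.0436). Vopp1 went from 20.6 and 22.3 CPM to 9.85 and 8.02 CPM (adjusted p 0.0407), and it overlaps Lancl2 on the opposite strand. Trib2, a pseudokinase named after its values were seen, went from 101 and 89.3 CPM to 33.4 and 34.2 CPM (adjusted p 0.0436). In all 4 genes the KO libraries lay below both WT libraries, as in 12.7% of all genes tested. The rule for naming genes required this of Smad1, Prkaca and Vopp1, so it adds no support for them.

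**Figure D2:**
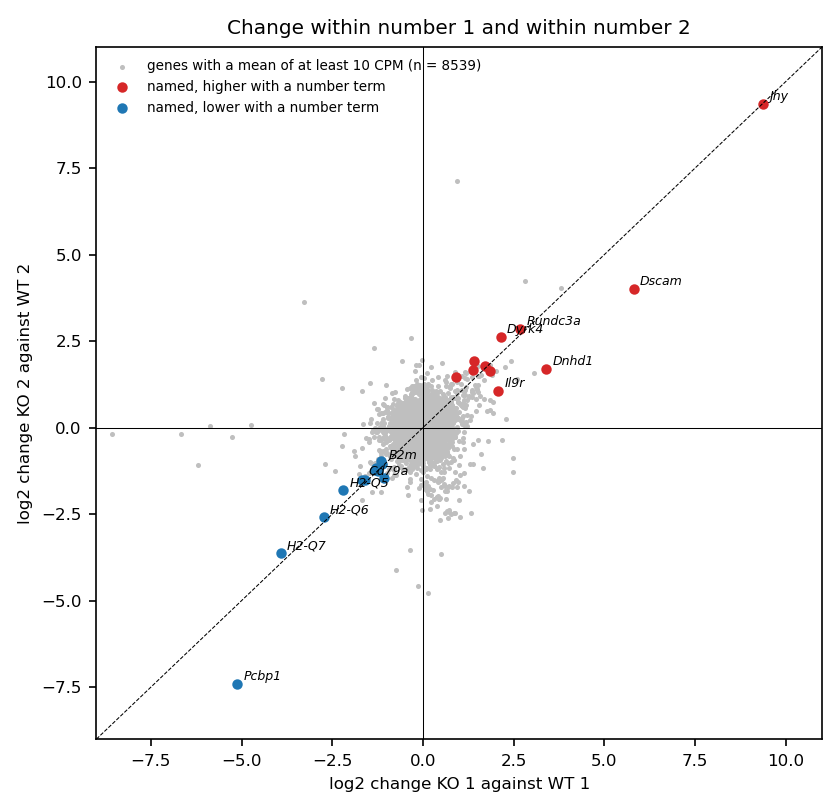
Each point is a gene, with its log2 CPM change of KO 1 against WT 1 on the x axis and of KO 2 against WT 2 on the y axis. Grey points are the 8539 genes with a mean of at least 10 CPM, colored points are genes named from the fit with a number term, and the dashed line marks equal changes. The place of Jhy, at 0 in WT, depends on the prior count. H2-Q7 lies at -3.92 and -3.63 and Il9r at 2.07 and 1.05.

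Across the genome the 2 numbers shared little. The within-number changes had opposite signs in 46.9% of genes tested, and in 44.1% of the 8539 genes with a mean of at least 10 CPM. Their correlation across those 8539 genes was 0.22, given as a description, since genes are not independent replicates. A change of at least 1 on the log2 scale in the same direction in both numbers was seen in 607 higher (2.89%) and 416 lower genes (1.98%). KO libraries lay above both WT libraries in 2411 genes (11.5%) and below both in 2663 (12.7%).

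Iron handling, the other known role of PCBP1, showed no gene past the test. None of 18 genes of iron uptake, storage and sensing had an unadjusted p under 0.05, and their median was -0.08. Tfrc, the transferrin receptor, was at 79.8 and 82.0 CPM in WT and 66.5 and 64.1 CPM in KO (difference -0.31, SE 0.16, adjusted p 0.992). Fth1, the ferritin heavy chain, was at 367 and 324 CPM in WT and 297 and 252 CPM in KO (difference -0.33, SE 0.18, adjusted p 1). Both were lower in each KO library than in each WT library, by amounts that edgeR did not call. The same separation was seen in 12.7% of all genes tested. Over the 18 genes, 5 lay below in this way and 1 lay above. Among 32 genes of iron-sulfur cluster and heme synthesis, likewise none had an unadjusted p under 0.05, and DESeq2 called 0 genes of either list, with Glrx5 at -0.50 and Isca2 at -0.36.

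Respiratory chain genes were taken by complex. Nuclear complex I subunits had values below 0 in 29 of 36 genes with a median of -0.15, and complexes II to V in 30 of 36 with a median of -0.17. For the 13 proteins encoded in mitochondrial DNA the median was -0.05, with 0.11 within number 1 and -0.32 within number 2. In the second list Atp5a1, annotated as an ATP synthase subunit, was called lower with the number term (adjusted p 0.0499). It had 393 and 22 counts in WT and 2 and 0 in KO, and at most 4 counts in any iGCB library. Cytosolic ribosomal protein genes had values below 0 in 45 of 50 genes with a median of -0.14, and 0 genes past the test in edgeR, at an unadjusted p under 0.05 or in DESeq2. For hnRNP and splicing regulators, proteins of PCBP1's own class, the values were below 0 in 36 of 39 genes with a median of -0.15. The median was -0.05 over all genes tested and -0.09 over the 8539 genes with a mean of at least 10 CPM.

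**Figure D3:**
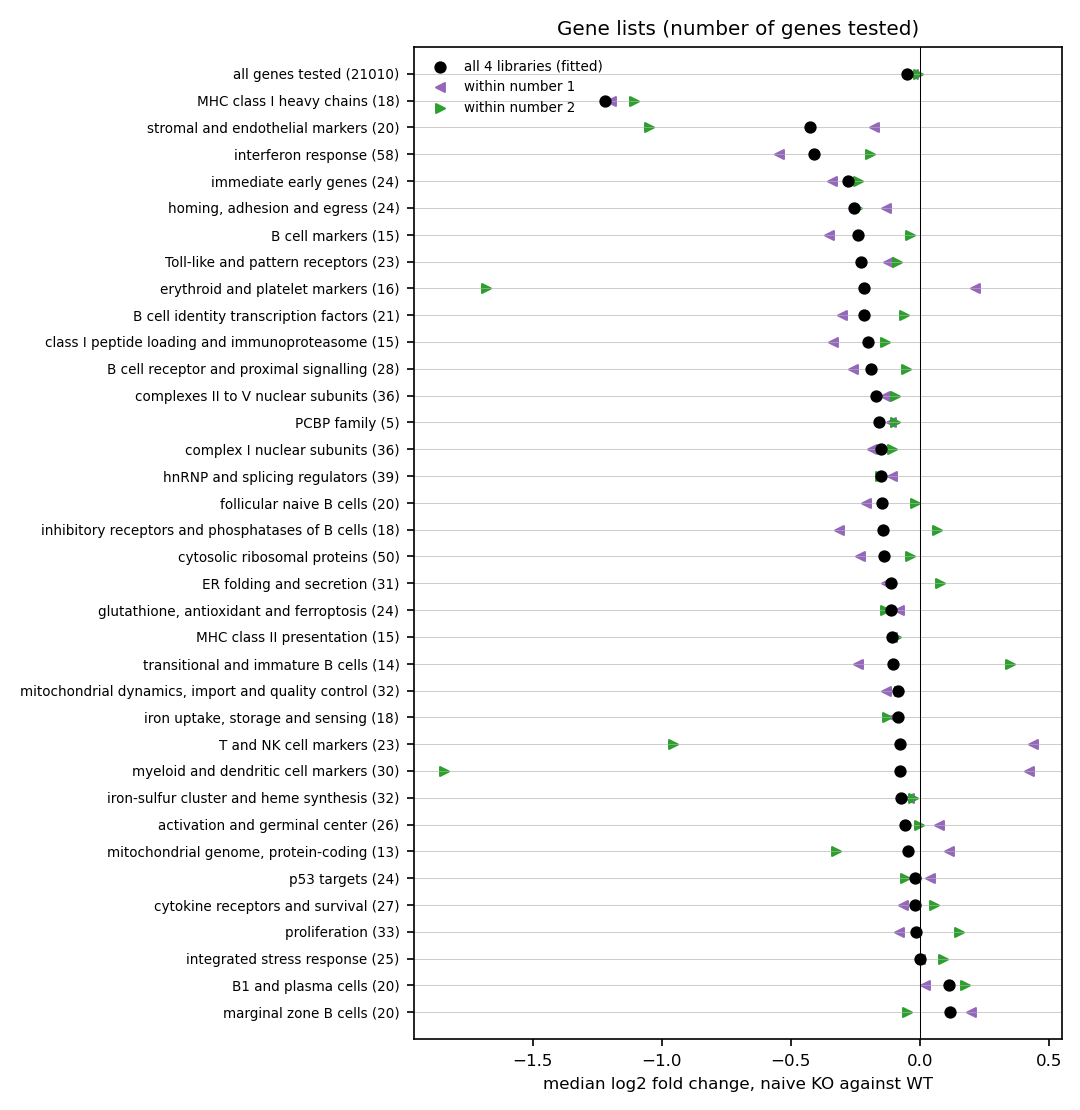
Median log2 fold change of each gene list, with the number of genes tested in brackets. Black circles are the fit over all libraries, purple and green triangles the medians within number 1 and number 2. The MHC class I heavy chain list has its 3 medians between -1.22 and -1.11, while myeloid markers sit at 0.42 within number 1 and -1.84 within number 2.

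Genes that mark B cell states showed no called change apart from those above. Follicular genes had a median of -0.15 over 20 members, with Satb1 at -0.77 and Foxo1, a regulator of resting B cells, at -0.45, with adjusted p of 0.837 and 0.869 by edgeR. Marginal zone genes had a median of 0.12 over 20 members, with 13 above 0 and 7 below. Within number 1 and number 2 their medians were 0.20 and -0.05. S1pr3, a sphingosine phosphate receptor of these cells, was at 27.8 and 29.4 CPM in WT and 38.7 and 39.9 CPM in KO, and Hes1, a Notch target, at 35.7 and 31.6 CPM in WT and 54.7 and 52.7 CPM in KO. Their differences of 0.46 and 0.67 had adjusted p of 0.749 and 0.808 by edgeR. Both had KO libraries above both WT libraries, as did 11.5% of all genes tested. Over the marginal zone list, 3 members lay above in this way and 3 lay below. Transitional genes had a median of -0.11 over 14 members, with 8 below 0 and 6 above. Within number 1 and number 2 their medians were -0.24 and 0.35. Cecr2 and Cd24a, which had the smallest p of that list, differed by -0.93 and -0.62, with adjusted p of 0.622 and 0.703 by edgeR. Homing receptor Ccr6 was at 71.9 and 74.5 CPM in WT and 158 and 112 CPM in KO, a difference of 0.88 (adjusted p 0.347 by edgeR). In iGCB cells Ccr6 was called at 2.75 (adjusted p 0.000234 by edgeR). The difference between these 2 effects, -1.87, did not pass (adjusted p 0.0865 by edgeR).

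Immediate early genes, which respond within minutes to stimulation or handling, were mostly lower. Values were below 0 in 21 of 24 genes, with a median of -0.28 and medians of -0.34 and -0.24 within the numbers. Klf4 was at 164 and 347 CPM in WT and 81.7 and 132 CPM in KO, a difference of -1.26 (SE 0.48, adjusted p 0.788 by edgeR). Dusp5 differed by -0.88 (adjusted p 0.729). Class II presentation genes had a median of -0.11, and H2-Oa, a subunit of the inhibitor H2-O, was lower in both KO libraries at 54.6 and 42.8 CPM against 104 and 98.6 CPM (difference -1.06, adjusted p 0.264 by edgeR). DESeq2 and edgeR without a filter on low counts also called H2-Oa lower, with a smallest adjusted p of 0.00505 in DESeq2. Genes of proliferation, p53 targets, and cytokine receptors and survival had medians of -0.01, -0.02 and -0.02. In the remaining pathway and B cell state lists edgeR called 0 genes, with 0 to 2 genes a list at an unadjusted p under 0.05. Their medians ran from -0.25 (homing, adhesion and egress) to 0.11 (B1 and plasma cells). DESeq2 called 1 gene of those remaining lists, Ccr6.

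Markers of other cell types differed between the KO libraries. The 30 myeloid and dendritic markers tested summed to 996 and 824 CPM in WT, 1341 CPM in KO 1 and 228 CPM in KO 2. Csf1r, the receptor of macrophage colony-stimulating factor, was at 122 and 56.1 CPM in WT, 162 CPM in KO 1 and 14.2 CPM in KO 2. The 16 erythroid and platelet markers summed to 125 and 173 CPM in WT, 242 CPM in KO 1 and 42.2 CPM in KO 2. KO 2 was thus the lowest library and KO 1 the highest for both lists. Of the 30 myeloid and dendritic markers, 17 had values below 0 and 13 above. An unadjusted p under 0.05 was found for 4, all lower (Ngp, Ltf, S100a9 and S100a8), and edgeR called 0. Both KO libraries lay below both WT libraries in 6 of the 30 and above in 0, against 12.7% and 11.5% of all genes. The 23 T and NK markers summed to 633 and 485 CPM in WT and 420 and 316 CPM in KO. Most of it was Cd2, which B cells of mice also express (496, 398, 250 and 240 CPM). Cd3e was at 7.02 and 3.66 CPM in WT and 8.37 and 1.25 CPM in KO. Of the 23, 13 had values below 0 and 10 above. By edgeR, 2 higher members and 1 lower member had an unadjusted p under 0.05. KO libraries lay above both WT libraries in 4 of the 23 and below both in 2. No tested marker of these 3 lists was at 0 in both libraries of a group. The 20 stromal and endothelial markers tested summed to 649 to 846 CPM over the 4 libraries, most of it Pecam1 and Vim. Pecam1 was at 476 and 438 CPM in WT and 371 and 447 CPM in KO. Vim was at 343 and 249 CPM in WT and 244 and 228 CPM in KO. Of the 20, 17 had values below 0 and 3 above, with a median of -0.43. The median was -0.27 over the 8 with a mean of at least 1 CPM. DESeq2 called 1 of them, Col1a1, lower. The part of other cells in the results above was not tested. In bulk RNA, fewer cells of a type and less RNA per cell cannot be told apart.

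**Figure D4:**
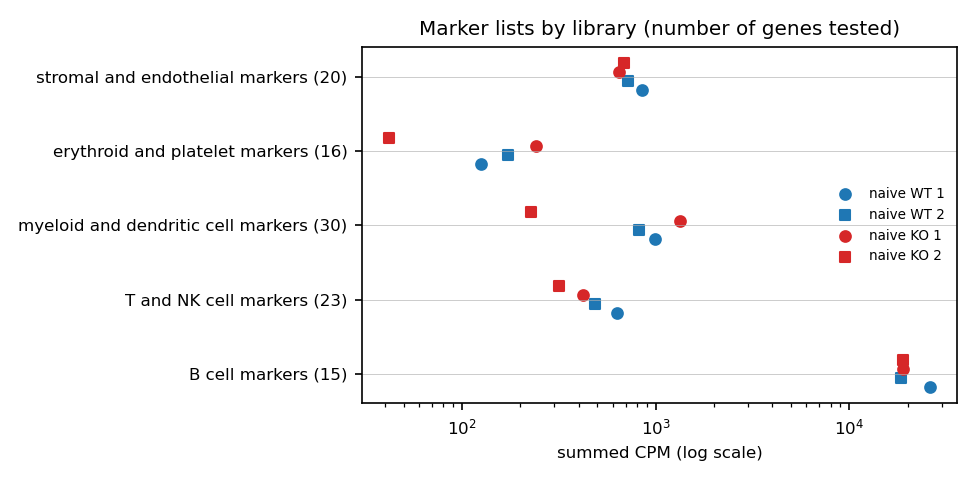
Summed CPM of 5 marker lists in each naive library, on a log axis, with the number of genes tested in brackets. Blue is WT, red is KO, circles are number 1 and squares number 2. KO 2 has the lowest sums for myeloid markers (228 CPM) and erythroid markers (42.2 CPM).

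The lower heavy chain genes lie together on chromosome 17. Between H2-K1 and H2-M2 (chr17:33996017-37483552, mm10), 28 of 163 tested genes had an unadjusted p under 0.05, or 17.2%, against 5.55% of all genes. Without the class I heavy chains it was 17 of 145, or 11.7%, and none of these 17 passed the adjusted threshold. These shares count genes of either direction. The median difference was -0.11 over the 163 genes and -0.07 over the 145, against -0.05 over all genes tested. The 17 included H2-Oa and Ehmt2, both lower in KO. Ehmt2, a histone methyltransferase named after its values were seen, was at 188 and 144 CPM in WT and 107 and 103 CPM in KO. Within 5 Mb of Pcbp1 on either side the share was 11 of 166 (6.63%), and within 5 Mb of Cd79a 10 of 158 (6.33%).

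The iGCB libraries show which of these differences also appeared after 4 days of culture. Xist was at 0 to 15 counts and Ddx3y at 4386 to 5564 counts in the iGCB libraries, a male pattern. The naive libraries were of both sexes, so stage and sex cannot be fully told apart in comparisons between stages. With KO against WT in iGCB cells, 72 genes were called higher (0.343%) and 194 lower (0.923%). Of the 22 genes lower in naive cells with the number term, 11 were called lower in iGCB cells and 19 had the same sign. Of the 35 higher genes, 8 were called higher and 27 had the same sign, and none of the 57 was called in the opposite direction. Both stages were fitted together and share their estimate of spread but no library. H2-Q7 differed by -2.48 in iGCB cells (adjusted p 0.00110 by edgeR), H2-Q6 by -1.82, H2-Q5 by -1.67, H2-Q4 by -0.68 and Cd79a by -1.03. Rundc3a differed by 2.88 and Smad1 by -1.92, both also called.

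**Figure D5:**
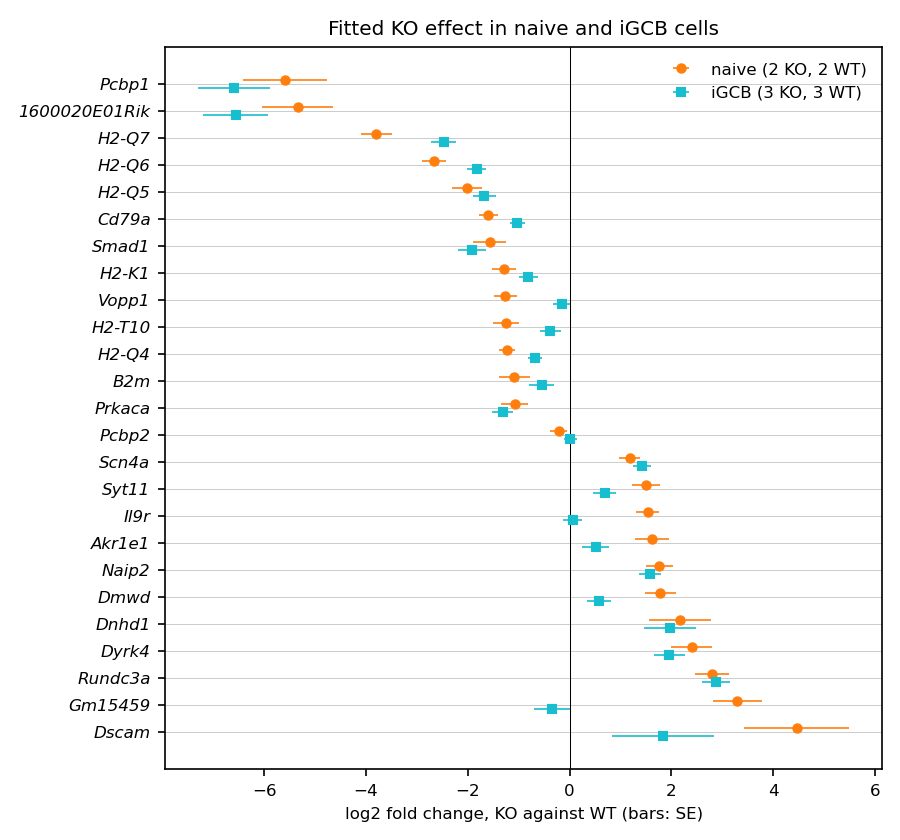
Fitted log2 fold change of KO against WT in naive cells (orange circles) and iGCB cells (blue squares) for named genes, with bars of 1 SE. Jhy and Zfp521 are left out because a naive group is at 0. Rundc3a lies at 2.80 and 2.88, while Gm15459 lies at 3.30 and -0.35 and Il9r at 1.53 and 0.06.

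Some differences had other values in iGCB cells. Il9r differed by 0.06 there and Gm15459 by -0.35, and the class I list median was -0.64 against -1.22 in naive cells. The difference of the KO effects was tested for each gene, and 7 of all genes passed (0.0333%). Il9r (difference of effects 1.47, adjusted p 0.184), Gm15459 (3.64, adjusted p 0.0865) and H2-Q7 (-1.32, adjusted p 0.392) did not pass, so these effects were not shown to differ between stages. Jchain and Sec24d did pass. Jchain, the joining chain of secreted antibodies, differed by 0.38 in naive cells (adjusted p 1) and by -3.27 in iGCB cells, and Sec24d, part of the COPII coat that carries cargo to the Golgi, by 0.59 (adjusted p 0.999) and -3.01.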

How the data were processed

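The authors deposited whole-number counts per gene symbol, made with featureCounts on mm10 per the submitters' processing notes. Libraries were made from total RNA with an NEB kit, per the labels' protocols. Not given in the sources used here are the aligner, annotation, strand setting and versions. Among counts from 1 to 20, 17.7% to 26.9% were odd, so mates may be counted singly and a count is not an independent molecule.

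Positions and gene types are from GENCODE M21. Genes were filtered with filterByExpr by group (minimum count 10), scaled by TMM and fitted over all 10 libraries as 4 groups by glmQLFit and glmQLFTest (edgeR 4.0.16, R 4.3.3), leaving 6 residual degrees of freedom. Two-sided p-values were adjusted by Benjamini-Hochberg over 21010 genes at 0.05. The number term is a replicate block for the naive libraries, where it coincides with sex. Within-number changes are log2 CPM with a prior count of 2. SE is the absolute log2 fold change over the square root of F. The fit was tested on simulated data. Alternatives included DESeq2 1.42.0.

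Named genes are Pcbp1, Pcbp2, every called gene, up to 12 higher and 12 lower genes of the number-term fit with a mean of at least 1 CPM, groups that do not overlap and within-number changes of 1 sign, without receptor segments, predicted genes, clones and sex genes, and in each of 36 lists (845 genes, of which 6 are not in the table) the called members or those with the smallest p, or the 4 most abundant where a list marks another cell type. Members and lists were chosen with earlier results of these data known. Most other genes are marked as named after their values were seen. Pcbp3, Hnrnpk, H2-M5, Rasgrp3, Col1a1, Ngp, Ltf, S100a9, S100a8 and Cd3e also fall outside this rule but are not marked. Genes named only for sex, promoters or overlaps are not marked either. Values of a few genes that this rule takes in are left out here.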

Additional observations from a re-analysis of the deposited data

Results flagged for a closer look

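The effect of the knockout differed between naive and iGCB cells, by a test of the difference itself in edgeR, for 3 of the named genes. Sex also differed in part between the stages, and its share was not tested. The differences of effects (naive minus iGCB, log2) were -6.49 for Zfp521, 3.65 for Jchain and 3.61 for Sec24d. The value of Zfp521 rests on 11 and 10 counts in the naive WT libraries and 0 in naive KO and depends on the prior count. It is therefore no measure of size. Zfp521 also passed the filter on low counts only through the iGCB libraries, so its test is no support for an effect in naive cells.

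In 4 sets, the median change was at least 0.25 in size within each number and opposite in sign between the numbers. These differences were not tested. T and NK cell markers changed by 0.44 within number 1 and by -0.96 within number 2, and myeloid and dendritic cell markers by 0.42 and -1.84. Heavy chain V segments changed by -0.38 and 0.39, and kappa V segments by -0.25 and 0.59.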

How the results depend on the processing

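The counts of called genes depended strongly on the fit. Against 3 higher and 7 lower genes, DESeq2 called 107 and 64, and edgeR without a filter on low counts 126 and 116. With the naive libraries alone, edgeR called 0 and 0, with 235 higher and 113 lower genes at an unadjusted p under 0.05. The replicate block on naive libraries gave 35 and 22, and a block in both stages 15 and 16. Leaving out 1 naive library at a time gave 2 to 17 higher and 9 to 27 lower genes, with the most calls without WT 2 and the fewest higher ones without KO 1. Pcbp1 itself passed with DESeq2 (-5.62), without the filter (-5.57), and with the block in naive libraries (-6.02) or both stages (-6.01), and ranged from -8.05 to -4.77 with 1 library left out.

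Jhy, 1600020E01Rik, H2-Q6, Rundc3a and H2-Q7 stayed past the threshold in 4 of 4 fits with 1 library left out, and lost it only with the naive libraries alone. The largest adjusted p with 1 library left out was 0.0655 for Cd79a, 0.182 for H2-Q4, 0.184 for H2-Q5, 0.104 for Gm15459 and 0.185 for Zfp521. With 1 library left out, 3 uncalled differences changed sign. Pmaip1 ranged from -1.46 to 0.45, Tyms from -0.042 to 1.19 and Mr1 from -0.037 to 0.39. The cause was not tested.

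The labels do not say what a shared number means. Deviations of same-numbered libraries from their group means correlated at 0.71 in naive cells, and at 0.34, -0.10 and 0.04 in iGCB cells. No fit varied the depth, and Zfp521 was called on 11 and 10 WT counts.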
